A study of Mus musculus with 96 samples.

Results

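Ethanol-fixed liver was set against frozen liver in 24 of the 96 libraries of a study on RNA from archival tissue, 12 libraries from ethanol-fixed portions and 12 from frozen portions. The libraries were chosen by their titles, which give the preservation state and the animal, and the 12 male B6C3F1 mice each gave 1 portion to each state. B6C3F1 is a hybrid strain common in toxicology. At 10 to 11 weeks of age 6 mice received phenobarbital, a sedative drug and classic activator of the hepatic receptor CAR, at 600 ppm in the drinking water for 7 days, and 6 control mice received 0 ppm. The groups were therefore ethanol-fixed liver of phenobarbital mice, frozen liver of phenobarbital mice, ethanol-fixed liver of control mice and frozen liver of control mice, with 6 libraries each. Ethanol portions stood in 70% ethanol in the cold for 3 months, were embedded in paraffin and spent at most 4 months as unrefrigerated blocks, whereas frozen portions received no fixative. Every portion was cut from liver that had already been flash frozen, a mix of 3 lobes, so fixation of fresh tissue was not modelled. The submitters describe the ethanol state as a control for the fixative. A further 12 libraries of the same mice, from portions given 18 hours in 10% buffered formalin before the same ethanol and paraffin, served as the nearest other state. RNA of frozen portions was isolated with RNAzolRT and RNeasy MinElute columns, while the kit for paraffin portions is not given in the sources used here. Ethanol, embedding, block storage and the isolation kit therefore cannot be told apart in any difference below.

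Ethanol preserves tissue by removing water and precipitating protein, whereas formaldehyde reacts with bases and amino groups and leaves adducts and crosslinks on RNA. Libraries of total RNA depleted of ribosomal RNA hold messenger RNA, unspliced and nuclear RNA, long noncoding RNA and small structured RNAs such as snoRNAs, which guide the modification of ribosomal RNA, and snRNAs, which build the spliceosome. Liver RNA comes mostly from hepatocytes, which make plasma proteins, clear ammonia and metabolise drugs. Smaller populations are the sinusoidal endothelium, the Kupffer cells (resident macrophages), the stellate cells and the bile duct epithelium.

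The sequences below are those of short noncoding loci that rose or fell in ethanol-fixed liver and are shown because such RNAs have a place in the results that follow. Those of Gm23935 and Gm24187, predicted microRNA precursors of 57 bases that rose, differ at 1 base (G11A, counted from the 5′ end of Gm23935, capitals). They lie at chr16:11144125-11144181 (plus strand) and chr13:9834469-9834525 (minus strand).
Gm23935: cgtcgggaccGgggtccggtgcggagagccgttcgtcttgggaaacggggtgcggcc
Gm24187: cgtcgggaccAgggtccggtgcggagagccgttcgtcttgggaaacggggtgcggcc
The mature microRNA of Mir6236 (chr9:110281353-110281371, plus strand, RefSeq on GRCm38.p6), another locus that rose, has its seed, bases 2 to 8, in capitals.
mmu-miR-6236: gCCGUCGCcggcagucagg
The named snoRNAs that fell most were Snora57 (chr19:8888538-8888685, minus strand) and Snora23 (chr7:110046364-110046547, plus strand), with the ACA box 3 bases before the end in capitals, and Snord118, also known as U8, a snoRNA needed to process ribosomal RNA (chr11:69073427-69073561, plus strand), with its TGATGA and CTGA boxes in capitals.
Snora57: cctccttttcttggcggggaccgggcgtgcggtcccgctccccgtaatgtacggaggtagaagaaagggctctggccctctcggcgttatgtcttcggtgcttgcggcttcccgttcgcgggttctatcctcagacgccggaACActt
Snora23: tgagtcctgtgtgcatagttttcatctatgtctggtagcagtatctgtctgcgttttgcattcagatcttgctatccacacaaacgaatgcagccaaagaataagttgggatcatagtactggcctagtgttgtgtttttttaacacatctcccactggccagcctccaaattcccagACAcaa
Snord118: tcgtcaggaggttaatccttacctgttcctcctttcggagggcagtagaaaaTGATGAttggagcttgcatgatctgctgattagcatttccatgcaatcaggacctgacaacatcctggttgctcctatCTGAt
Rny3, the Y RNA that fell most, is shown without capitals (chr6:47781624-47781725, plus strand).
Rny3: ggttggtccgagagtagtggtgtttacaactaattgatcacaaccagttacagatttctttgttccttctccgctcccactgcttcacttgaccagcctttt
Sequences and coordinates of the genes are those of GENCODE M21 on GRCm38, 1-based, and the annotation used for counting may differ.

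Ethanol-fixed libraries held 12083342 to 16084964 counts and frozen libraries 14527636 to 18442730. The total was lower in the ethanol portion of 10 of 12 animals (mean difference -1564112, two-sided exact permutation test over the sign changes of 12 differences, adjusted over 11 library measures, p = 0.0149). Thinned to the same total, ethanol-fixed libraries held 19817 ± 293 detected genes and frozen libraries 19623 ± 213 (SD, n = 12 each), higher in 10 of 12 animals (exact permutation test, adjusted p = 0.00403). All 12 hepatocyte markers were measured in both states, with summed levels of 73522 to 115025 CPM (scaled by TMM) in ethanol-fixed and 94832 to 130326 CPM in frozen liver. Markers of skeletal muscle and keratinocytes summed to at most 1.61 and 1.24 CPM in an ethanol-fixed library, against at most 14.1 and 0.920 CPM in a frozen one. 1 ethanol-fixed library, of control animal 21C, stood apart from the other 5 of its group in 4 class shares, and the main counts are also given without this animal.

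Ethanol-fixed liver differed from frozen liver in about 1 gene of every 2 tested. Of 13908 genes tested with edgeR's quasi-likelihood test, with the animal as a block and a Benjamini-Hochberg adjusted p of at most 0.05, 3595 were higher in ethanol-fixed liver (25.8%) and 3775 were lower (27.1%), together 7370 (53.0%). The median size of the log2 fold change was 0.23 among the genes called, 70.5% of them differed by less than 1.25-fold, and 460 had a fitted fold of 1.5 or more. A second rule asked for evidence of a fold above 1.5 (edgeR's glmTreat, adjusted p of at most 0.05) and called 96 genes (0.690%), 88 higher (0.633%) and 8 lower (0.0575%). The weakest genes inside this rule were Inafm1 and Iffo1, with log2 fold changes of 1.01 and 0.82 and adjusted p-values of 0.0478 and 0.0464, and the nearest outside were Slc12a9 and Nfix, with 0.78 and 0.71 and adjusted p-values of 0.0521 and 0.0562. Without animal 21C the counts were 7052 and 87. The division into higher and lower rests on the scaling: with library totals alone in place of TMM, 5408 genes were higher and 1994 lower, and the median over all genes was 0.080, against -0.0075 with TMM. Below, a level is a mean ± SD over 12 libraries per state unless the lowest, median and highest are given, and a log2 fold change is given ± SE.

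**Figure D1:**
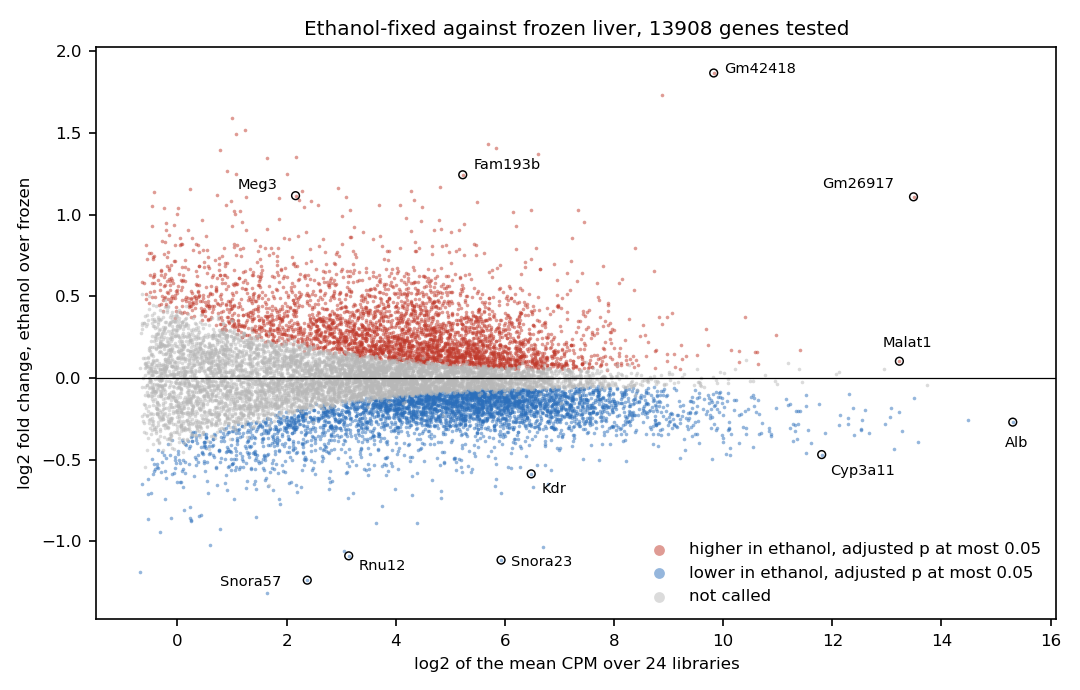
Log2 fold change of ethanol-fixed over frozen liver (vertical axis) against the log2 mean level in CPM (horizontal axis) for 13908 genes, with 12 libraries per state. Red points were called higher and blue points lower at an adjusted p of at most 0.05, grey points were not called, and named genes run from 1.87 for Gm42418 to -1.24 for Snora57.

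Loci that are known to collect ribosomal RNA or repeat reads in mouse data held more of the counts in ethanol-fixed liver. The share of these loci, with Gm24187 and Mir6236 counted among them, was 1.28, 1.66 and 3.02% (lowest, median and highest) in ethanol-fixed liver, against 0.536, 0.775 and 1.10% in frozen liver. The states did not overlap, and the share was higher in ethanol in 12 of 12 animals (mean difference 1.13 percentage points, exact permutation test, adjusted p = 0.00107). Gm42418 (chr17:39846958-39848788), annotated as a long noncoding RNA, had 622, 1375 and 2344 CPM in ethanol-fixed and 226, 361 and 520.1 CPM in frozen liver, without overlap, a log2 fold change of 1.87 ± 0.11 (SE; adjusted p = 7.58e-14). AY036118, which overlaps it on the opposite strand and shares 904 of 904 words of 20 bases with it, had 0 counts in all 24 libraries.

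Gm26917 (chr17:39843013-39846341), the most abundant of these loci, had 11135, 14564 and 23242 CPM in ethanol-fixed and 5175, 7268 and 10085 CPM in frozen liver, again without overlap (log2 fold change 1.11 ± 0.086, adjusted p = 1.12e-11). Lars2, which encodes the mitochondrial leucyl-tRNA synthetase and is known to carry a stretch that attracts ribosomal reads in mouse data, averaged 76.0 ± 20.3 CPM in ethanol-fixed and 27.8 ± 6.92 CPM in frozen liver (log2 fold change 1.44 ± 0.094, adjusted p = 3.64e-13). The short loci printed above also rose: Gm23935 rose by 1.73 ± 0.18, Gm24187 by 1.37 ± 0.11 and Mir6236 by 1.41 ± 0.17 on the log2 scale, each in 12 of 12 animals. Reads of Gm23935 and Gm24187, whose sequences differ at 1 base, may be shared between them. Of the 17 loci of the list in the table, 5 had enough counts to be tested, 4 rose and 0 fell, with a median of 1.44 against -0.0075 over all genes tested.

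**Figure D2:**
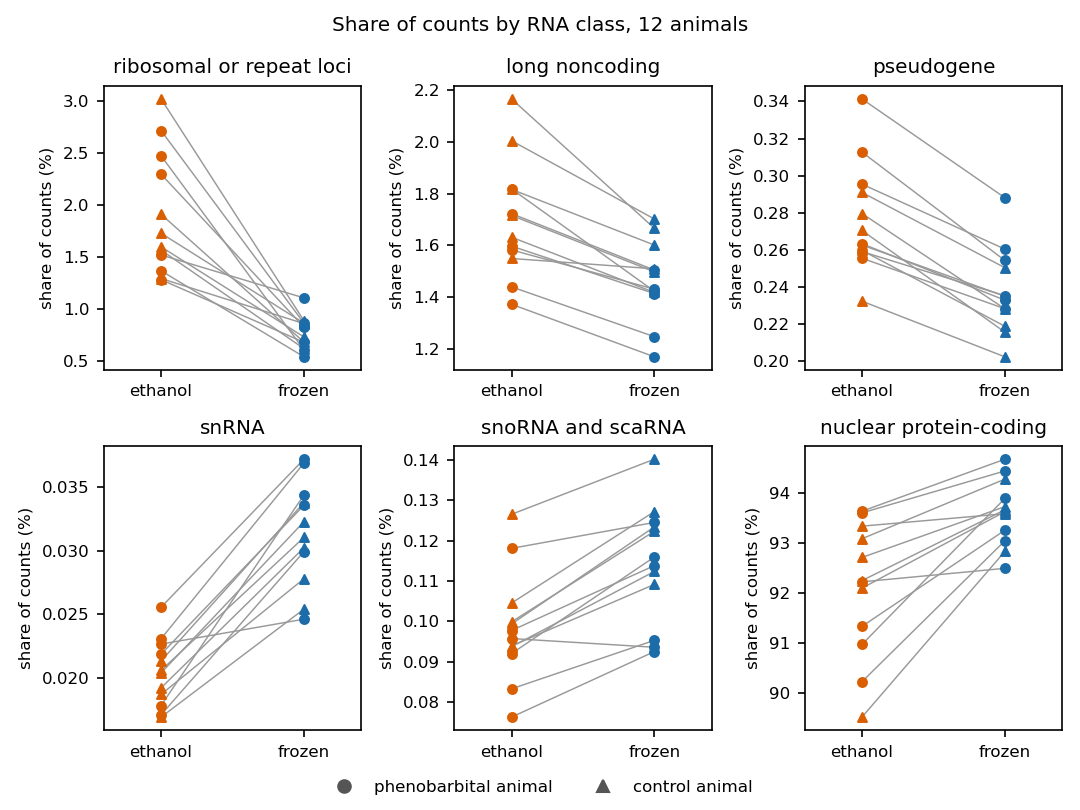
Share of all counts in percent (vertical axes, not starting at 0) held by 6 RNA classes in the ethanol-fixed (left) and frozen (right) portion of each animal, joined by a line. Shares of ribosomal or repeat loci, long noncoding RNA and pseudogenes were higher in the ethanol portion of 12 of 12 animals, and shares of snRNA and nuclear protein-coding genes were lower in 12 of 12.

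Most small structured RNAs that changed were lower in ethanol-fixed liver. The share of counts in snRNAs was 0.0204 ± 0.00263% in ethanol-fixed and 0.0314 ± 0.00407% in frozen liver (SD, n = 12 each), lower in 12 of 12 animals (exact permutation test, adjusted p = 0.00107). That of snoRNAs and scaRNAs was 0.0984 ± 0.0136% and 0.114 ± 0.0147% and was lower in 11 of 12 animals (exact permutation test, adjusted p = 0.00179). All 8 genes lower past 1.5-fold were annotated snRNAs or snoRNAs of under 250 bases. Snora23, a guide for pseudouridylation that lies within the gene Ipo7, had 27.8, 39.1 and 49.7 CPM in ethanol-fixed and 56.9, 86.9 and 121 CPM in frozen liver. The states did not overlap, and the log2 fold change was -1.11 ± 0.051 (adjusted p = 2.15e-16). Snora57 averaged 3.11 ± 0.992 CPM in ethanol-fixed and 7.30 ± 1.89 CPM in frozen liver (log2 fold change -1.24 ± 0.094, adjusted p = 7.84e-12), and Snord118 averaged 5.37 ± 1.26 and 11.2 ± 2.68 CPM (log2 fold change -1.06 ± 0.082, adjusted p = 1.10e-11). Both were lower in 12 of 12 animals.

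The background over all genes tested was 25.8% higher and 27.1% lower. Among all 59 snoRNAs and scaRNAs tested, of 1558 annotated, 6 rose and 26 fell with a median of -0.18. By abundance its leading members were Snord17, which fell by 0.49 ± 0.040 on the log2 scale to 143 ± 23.2 CPM in ethanol-fixed, against 201 ± 31.4 CPM in frozen liver, Snora73b (log2 fold change -0.19 ± 0.028) and Gm25395 (-0.18 ± 0.044), whose call was lost with library totals alone (-0.090) and in phenobarbital animals alone (-0.064). The ACA box 3 bases from the end stood in 19.3% of all annotated snoRNA and scaRNA sequences, most of them not tested. Of the 38 tested that carried it 3 rose and 18 fell (median -0.23), shares near those of all 59 tested. Of the 42 tested snoRNAs and scaRNAs of 100 to 149 bases 4 rose and 17 fell. Of the 11 from 150 to under 400 bases 0 rose and 8 fell, and these length bins do not hold every member tested. The 5 under 100 bases, of which 2 rose and 0 fell, went the other way, with a median of 0.13, a difference between lengths that was not tested.

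Of 15 snRNAs tested 0 rose and 11 fell, with a median of -0.63, against 27.1% lower over all genes tested. Rnu12, the U12 snRNA of the minor spliceosome, averaged 5.68 ± 2.25 CPM in ethanol-fixed and 11.9 ± 3.49 CPM in frozen liver (log2 fold change -1.09 ± 0.098, adjusted p = 1.84e-10), and Rnu11, its U11 partner, averaged 3.77 ± 1.27 and 4.92 ± 1.21 CPM (-0.40 ± 0.12, adjusted p = 0.00475), a call lost in phenobarbital animals alone (-0.29). Most other snRNAs counted here are predicted copies that share sequence with each other, so a value of one copy is uncertain. Gm25939, the most abundant of them, had 52.3, 64.2 and 91.8 CPM in ethanol-fixed and 109, 140.5 and 176 CPM in frozen liver, without overlap (log2 fold change -1.03 ± 0.053, adjusted p = 2.61e-15). Among Y, vault, 7SK, 7SL and RNase RNAs 0 rose and 7 fell of 8 tested, with a median of -0.23. The Y RNAs, which bind the Ro protein, fell most, with log2 fold changes of -0.78 ± 0.094 for Rny3 and -0.68 ± 0.11 for Rny1. Rmrp, the RNA of RNase MRP, averaged 941 ± 68.0 CPM in ethanol-fixed and 1104 ± 113 CPM in frozen liver (-0.23 ± 0.029), and it shares exonic bases with Ccdc107 on the other strand.

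Among genes of at least 5 CPM, the 12 named genes that rose most, after 4 predicted loci were passed over, were led by Lars2 and Mir6236, described above. Fam193b, a gene of poorly known function, had 36.8, 52.4 and 71.5 CPM in ethanol-fixed and 17.4, 21.9 and 28.0 CPM in frozen liver (chr13:55539316-55571120). Every ethanol-fixed library stood above every frozen one, and the log2 fold change was 1.25 ± 0.047 (adjusted p = 5.93e-18). Josd2, which encodes a deubiquitinase of the Josephin family, had 30.0, 36.7 and 55.7 CPM in ethanol-fixed and 11.9, 17.2 and 23.1 CPM in frozen liver, again without overlap (log2 fold change 1.17 ± 0.051, adjusted p = 8.73e-17). Mbd6, a methyl-CpG-binding domain gene, averaged 27.3 ± 5.25 CPM in ethanol-fixed and 12.8 ± 2.65 CPM in frozen liver (log2 fold change 1.09 ± 0.061), and the zinc finger gene Zfp692 averaged 8.10 ± 1.16 and 3.89 ± 0.791 CPM (1.06 ± 0.085), both without overlap.

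Col27a1, a fibrillar collagen gene, averaged 61.3 ± 23.3 CPM in ethanol-fixed and 28.6 ± 8.61 CPM in frozen liver (log2 fold change 1.08 ± 0.049, adjusted p = 2.24e-16). Of the other genes among these 12, Grik5, a kainate receptor subunit, rose by 1.17 ± 0.073, Chrna4, a nicotinic receptor subunit, by 1.06 ± 0.093 and Adrb3, the beta-3 adrenergic receptor, by 1.15 ± 0.061 on the log2 scale, all in 12 of 12 animals. Klhdc8b rose by 1.11 ± 0.067. An antisense transcript overlaps exons of Adrb3, and Ccdc71 overlaps Klhdc8b, so these 2 values could include reads of the partner. Of the 88 genes higher past 1.5-fold, 74 were protein-coding.

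**Figure D3:**
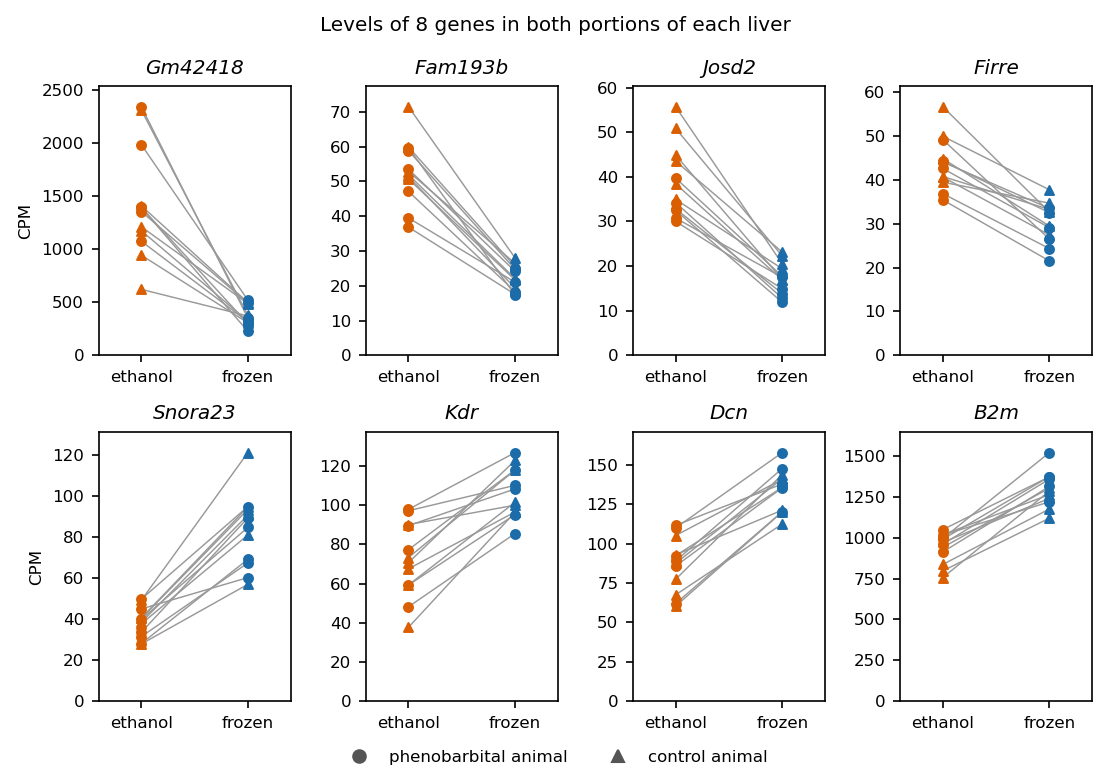
Levels in CPM (vertical axes, from 0) of 8 genes in the ethanol-fixed (left) and frozen (right) portion of each of 12 animals, joined by a line; circles are phenobarbital and triangles control animals. Gm42418, Fam193b, Josd2 and Firre were higher and Snora23, Kdr, Dcn and B2m lower in the ethanol portion of 12 of 12 animals.

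Most markers of the liver's endothelial, Kupffer and stellate cells fell in the ethanol-fixed portions. For the sinusoidal endothelium 0 rose and 11 fell of 12 tested, with a median log2 fold change of -0.49, and for Kupffer cells 0 rose and 11 fell of 12 tested, with a median of -0.43. For stellate cells and fibroblasts 1 rose and 7 fell of 12 tested (median -0.35), and for hepatocytes themselves 1 rose and 10 fell of 12 tested (median -0.26). The 1 stellate list member that rose was Col1a1 (0.46), a fibrillar collagen gene named after its value was seen, whose call was lost once a GC trend was removed (0.23). The background over all genes was 27.1% lower and 25.8% higher. Summed over its 12 genes the endothelial list held 476 to 878 CPM in ethanol-fixed and 805 to 1067 CPM in frozen liver, lower in 12 of 12 animals, with ranges that overlapped. The Kupffer list held 341 to 960.3 CPM and 522 to 1195 CPM, and the stellate list 410.4 to 634 CPM and 557 to 803 CPM, in ethanol-fixed and frozen liver, both lower in 12 of 12 animals. No member of the 3 lists was at 0 in all libraries. In bulk tissue, fewer cells of a type and less RNA per cell cannot be told apart.

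Kdr, the VEGF receptor of endothelium, had 37.7, 72.0 and 97.9 CPM in ethanol-fixed and 85.5, 105 and 127 CPM in frozen liver (log2 fold change -0.59 ± 0.063, adjusted p = 6.05e-09). The ranges overlapped, while 12 of 12 animals were lower in ethanol. Oit3 averaged 22.0 ± 7.21 and 35.1 ± 6.22 CPM (-0.69 ± 0.073) and Ptprb, an endothelial phosphatase, 176 ± 39.9 and 245 ± 30.2 CPM (-0.50 ± 0.054) in ethanol-fixed and frozen liver. Pecam1 fell by 0.51 ± 0.049 on the log2 scale, and Bmp2 did not pass the test (-0.15 ± 0.074, adjusted p = 0.0962). F8, coagulation factor VIII, which liver endothelium makes, had 28.8, 44.7 and 61.0 CPM in ethanol-fixed and 61.1, 72.0 and 93.9 CPM in frozen liver, without overlap (-0.71 ± 0.058, adjusted p = 3.36e-11). Adgrl4, an adhesion receptor of endothelium, averaged 15.0 ± 4.76 CPM in ethanol-fixed and 24.2 ± 3.43 CPM in frozen liver (-0.71 ± 0.072).

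Of the Kupffer cell genes, Clec4f, a lectin, had 55.8, 84.8 and 150.4 CPM in ethanol-fixed and 86.6, 117 and 183 CPM in frozen liver (log2 fold change -0.41 ± 0.038, adjusted p = 2.49e-10). Adgre1, the F4/80 antigen, changed by -0.53 ± 0.051, Csf1r, the receptor of macrophage growth factor, by -0.43 ± 0.038 and C1qa, a complement subunit, by -0.55 ± 0.053, whereas Marco, a scavenger receptor, did not pass the test (-0.21 ± 0.11, adjusted p = 0.119). Mrc1, the mannose receptor of macrophages and sinusoidal endothelium, averaged 71.3 ± 16.3 CPM in ethanol-fixed and 112 ± 13.8 CPM in frozen liver (-0.67 ± 0.053, adjusted p = 2.21e-11). The largest falls also included H2-Aa, an MHC class II gene (-0.68 ± 0.060), Cd53, a leukocyte tetraspanin (-0.64 ± 0.074), and Tmsb4x, an actin-binding peptide gene (-0.62 ± 0.052), each lower in 12 of 12 animals. Dcn, which encodes the matrix proteoglycan decorin, had 60.3, 88.2 and 111.6 CPM in ethanol-fixed and 112.4, 136.7 and 157.7 CPM in frozen liver, without overlap (log2 fold change -0.65 ± 0.045, adjusted p = 1.54e-12). Lum, a related proteoglycan, changed by -0.70 ± 0.080, Reln by -0.41 ± 0.034 and Lrat, which stores vitamin A in stellate cells, by -0.44 ± 0.055.

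Markers of rarer populations were less uniform, and most were under the filter on low counts. Of 10 cholangiocyte markers 3 were tested, 2 rose and 1 fell. Their summed level over the 10 was higher in ethanol in 4 of 12 animals. Sox9 rose by 0.53 ± 0.075 in 12 of 12 animals while Spp1, osteopontin, fell (-0.37 ± 0.072, adjusted p = 8.05e-05, lower in 10 of 12). Of 10 neutrophil markers, near the low end of measurement, 3 were tested, 0 rose and 2 fell. Their summed level had medians of 8.06 CPM in ethanol-fixed and 8.38 CPM in frozen liver, higher in ethanol in 2 of 12 animals. S100a8 averaged 0.983 ± 0.757 CPM in ethanol-fixed and 2.03 ± 1.64 CPM in frozen liver (-1.02 ± 0.15, adjusted p = 2.14e-06). Its call was lost without the replicate block. Of 7 erythroid genes tested 0 rose and 1 fell, Alas2 (-0.21 ± 0.034). Of 2 lymphocyte markers tested 0 rose and 1 fell, Ptprc, the CD45 antigen.

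Of extracellular matrix genes 5 rose and 18 fell of 30 tested (median -0.20), against 25.8% and 27.1% over all genes. Once a GC trend was removed 1 was higher and 22 were lower, with a median of -0.30. The summed level of the list went the other way, with medians of 7117 CPM in ethanol-fixed and 6731 CPM in frozen liver, higher in ethanol in 10 of 12 animals. Sparc, a matricellular protein gene, averaged 56.7 ± 14.6 CPM in ethanol-fixed and 82.2 ± 16.2 CPM in frozen liver (-0.55 ± 0.039). Col18a1, a basement membrane collagen that hepatocytes also make, rose to 1533 ± 206 CPM in ethanol-fixed, against 1184 ± 159 CPM in frozen liver (0.37 ± 0.025, adjusted p = 5.28e-13, higher in 12 of 12). Its log2 fold change was 0.090 once the GC trend was removed.

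Hepatocyte messages for secreted proteins and enzymes were mostly lower in ethanol-fixed liver. Over all genes tested 27.1% fell. In the most abundant of 10 equal bins of genes by level 59.2% fell, with a median of -0.10. Of secreted plasma proteins 1 rose and 34 fell of 38 tested, with a median log2 fold change of -0.28 and values from -0.48 to 0.17. Alb, which encodes albumin, had 21736, 40721 and 52075 CPM in ethanol-fixed and 26779.9, 45256 and 63996 CPM in frozen liver. The ranges overlapped, and 12 of 12 animals were lower in ethanol (log2 fold change -0.27 ± 0.042, adjusted p = 2.99e-06). Apob, the main protein of very low density lipoprotein, averaged 21012 ± 1579 CPM in ethanol-fixed and 25053 ± 1398 CPM in frozen liver (-0.26 ± 0.033, adjusted p = 1.60e-07). Serpina1a, an antitrypsin gene with near-identical copies, averaged 989.7 ± 69.1 and 1223 ± 44.8 CPM without overlap (-0.31 ± 0.026). Hpx, hemopexin, changed by -0.43 ± 0.036 and Ttr, transthyretin, by -0.34 ± 0.030, while Plg, plasminogen, did not pass the test (0.056 ± 0.024, adjusted p = 0.0516).

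Of genes for the urea cycle and amino acid breakdown 3 rose and 25 fell of 30 tested (median -0.21). Cps1, which takes up ammonia in the first step of the urea cycle, averaged 4729 ± 715 CPM in ethanol-fixed and 6038 ± 981 CPM in frozen liver (-0.35 ± 0.033), and Oat, ornithine aminotransferase, changed by -0.51 ± 0.045. Of constitutive cytochromes P450 4 rose and 22 fell of 31 tested (median -0.17). The background was 27.1% lower over all genes and 59.2% lower in the most abundant bin. Cyp2e1, which oxidises ethanol in living liver, averaged 4008 ± 677 CPM in ethanol-fixed and 4874 ± 769.7 CPM in frozen liver (-0.29 ± 0.033, adjusted p = 1.87e-08). Pck1, the gatekeeper of gluconeogenesis, did not pass the test (-0.017 ± 0.029, adjusted p = 0.639), with levels of 1432 ± 868 and 1448 ± 849 CPM in ethanol-fixed and frozen liver.

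Genes of the respiratory chain, the proteasome and the ribosome fell in most members. Over all genes tested 27.1% fell, and of the most abundant of 10 equal bins of genes by level 59.2% fell, with a median of -0.10. The cytosolic ribosomal list was near the values of that bin. Of the nuclear-encoded respiratory chain 2 rose and 66 fell of 77 tested, with a median of -0.24. Cox6b1, a cytochrome oxidase subunit, changed by -0.43 ± 0.036 and Sdhb, of succinate dehydrogenase, by -0.36 ± 0.029. Of proteasome subunits 2 rose and 32 fell of 38 tested (median -0.22). Psmb1 averaged 78.7 ± 8.93 CPM in ethanol-fixed and 102 ± 9.49 CPM in frozen liver, while Psmd3 went the other way, with 79.4 ± 4.96 and 64.0 ± 4.88 CPM and no overlap (0.31 ± 0.026). Of cytosolic ribosomal protein genes, many with processed pseudogenes of like sequence, 3 rose and 51 fell of 80 tested (median -0.11). Rps29 changed by -0.29 ± 0.032 and Rpl10 by -0.27 ± 0.029. Of replication-dependent histones, whose messages end in a stem-loop and not a poly(A) tail, 0 rose and 18 fell of 28 tested (median -0.30).

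Genes often used as references for normalisation were among those that fell, 2 higher and 13 lower of 18 tested. B2m, the light chain of MHC class I, had 756, 966 and 1050.4 CPM in ethanol-fixed and 1119.9, 1295 and 1521 CPM in frozen liver, without overlap (log2 fold change -0.47 ± 0.032, adjusted p = 1.01e-12). Ppia, cyclophilin A, averaged 74.8 ± 7.67 CPM in ethanol-fixed and 99.1 ± 5.97 CPM in frozen liver, again without overlap (-0.41 ± 0.031). Actb, beta-actin, averaged 1003 ± 103 CPM in ethanol-fixed and 1267 ± 105 CPM in frozen liver (-0.34 ± 0.027, adjusted p = 1.97e-11), and Gapdh, a glycolytic enzyme, 188 ± 17.1 and 219 ± 17.7 CPM (-0.22 ± 0.025, adjusted p = 1.92e-08).

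Of 7 mitochondrially encoded protein genes tested 1 rose and 1 fell, with a median of 0.022, and the share of mitochondrially encoded RNA was 2.74 ± 0.536% in ethanol-fixed and 2.57 ± 0.405% in frozen liver (exact permutation test, adjusted p = 0.204). Of 7 mitochondrial tRNAs tested 4 rose and 1 fell, and 15 of the 22 annotated were under the filter. The proline tRNA mt-Tp rose by 1.497 ± 0.15 on the log2 scale in 12 of 12 animals. Its levels were low, with means of 3.12 CPM in ethanol-fixed and 1.09 CPM in frozen liver. The isoleucine tRNA mt-Ti changed by -0.34 ± 0.091, a call lost once a GC trend was removed (-0.17) and in phenobarbital animals alone (-0.16).

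Long noncoding RNAs rose more often than they fell. Their share of counts, without the ribosomal loci, was 1.37, 1.67 and 2.17% in ethanol-fixed and 1.17, 1.46 and 1.70% in frozen liver (lowest, median and highest), higher in 12 of 12 animals (exact permutation test, adjusted p = 0.00107). Of 692 tested, a list that includes ribosomal loci such as Gm42418, 236 rose and 33 fell, with a median of 0.16. Over all genes tested 25.8% rose and 27.1% fell. Within the list of nuclear-retained RNAs 5 rose and 3 fell of 13 tested. Malat1, a nuclear speckle RNA, averaged 9960.1 ± 1176 CPM in ethanol-fixed and 9253 ± 863 CPM in frozen liver (0.10 ± 0.030, adjusted p = 0.00456, higher in 10 of 12), and did not pass in phenobarbital (0.10) or control animals (0.11) alone. Neat1, the scaffold of paraspeckles, rose by 0.26 ± 0.040, and Firre, a nuclear RNA transcribed from the X chromosome, had 35.5, 43.4 and 56.7 CPM in ethanol-fixed and 21.5, 31.0 and 37.8 CPM in frozen liver (0.53 ± 0.045, adjusted p = 6.51e-11). Meg3, an imprinted RNA, rose by 1.12 ± 0.14 in 9 of 12 animals, but in the control animals alone it did not pass the test (0.42, adjusted p = 0.142). Kcnq1ot1, another imprinted nuclear RNA, fell (-0.18 ± 0.033), a call lost once a length trend was removed (-0.038).

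Of 18 tested host genes, which carry snoRNAs in their introns, 12 rose and 3 fell (median 0.43), against 25.8% and 27.1% over all genes. The summed level of the 19 hosts in the table went the other way, with medians of 2740.1 CPM in ethanol-fixed and 3000.5 CPM in frozen liver, lower in 12 of 12 animals. Snhg17 averaged 18.5 ± 1.62 CPM in ethanol-fixed and 12.9 ± 1.91 CPM in frozen liver (0.52 ± 0.053), Gas5 35.0 ± 5.52 and 26.3 ± 3.55 CPM (0.41 ± 0.045), and Snhg1 and Snhg20 rose by 0.63 ± 0.089 and 0.85 ± 0.12. Hosts and the snoRNAs inside their introns overlap in position, and how the counting treated strand and overlap is not stated.

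The background for the next lists was 25.8% higher and 27.1% lower over all genes. Of immediate early genes, whose short-lived messages follow a stimulus, 14 rose and 1 fell of 24 tested (median 0.25). Zfp36, which encodes an mRNA decay factor, averaged 43.5 ± 14.5 CPM in ethanol-fixed and 29.7 ± 9.13 CPM in frozen liver (0.54 ± 0.044, adjusted p = 2.23e-11). Its relative Zfp36l1 rose by 0.41 ± 0.033 and Egr1 by 0.65 ± 0.099, and Sgk1, a kinase gene, fell (-0.29 ± 0.050). Of circadian clock genes 11 rose and 2 fell of 19 tested (median 0.15). Nr1d1, the repressor REV-ERB alpha, averaged 75.7 ± 26.0 and 58.2 ± 21.1 CPM (0.38 ± 0.036, exons overlapping Thra on the other strand), Per2 20.6 ± 3.97 and 15.0 ± 3.66 CPM (0.47 ± 0.053), and Dbp and Cry2 rose by 0.65 ± 0.073 and 0.26 ± 0.031.

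Of p53 targets 7 rose and 3 fell of 16 tested (median 0.13), and once a GC trend was removed 5 rose and 2 fell (median 0.046). Among them were Bbc3, a death-promoting BCL2 relative, at 0.77 ± 0.080, or 0.38 without the GC trend, and Mdm2, the ligase that restrains p53, at 0.32 ± 0.034. Of zinc finger proteins 99 rose and 37 fell of 371 tested (median 0.041), among them Zfp598 (0.50 ± 0.032), a sensor of collided ribosomes. Over all genes tested 25.8% rose and 27.1% fell, so the share of zinc finger genes that rose was near the background. The share that fell was below it. Of heat shock genes 2 rose and 11 fell of 19 tested, among them Bag3, a co-chaperone that rose (0.47 ± 0.045), and Hsp90aa1, which fell (-0.42 ± 0.037). Of sterol and fatty acid synthesis genes 9 rose and 4 fell of 28 tested, with Srebf2, the regulator of cholesterol synthesis, at 0.32 ± 0.033. Pseudogenes held 0.277 ± 0.0293% of counts in ethanol-fixed and 0.238 ± 0.0229% in frozen liver. Among them Serpina4-ps1 was at 0.68 ± 0.038 and Mug-ps1 at 0.36 ± 0.033. The list of processed pseudogenes went the other way, with 23 higher and 38 lower of 212 tested. Its summed level had medians of 885 CPM in ethanol-fixed and 925 CPM in frozen liver, and was higher in ethanol in only 1 animal.

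**Figure D4:**
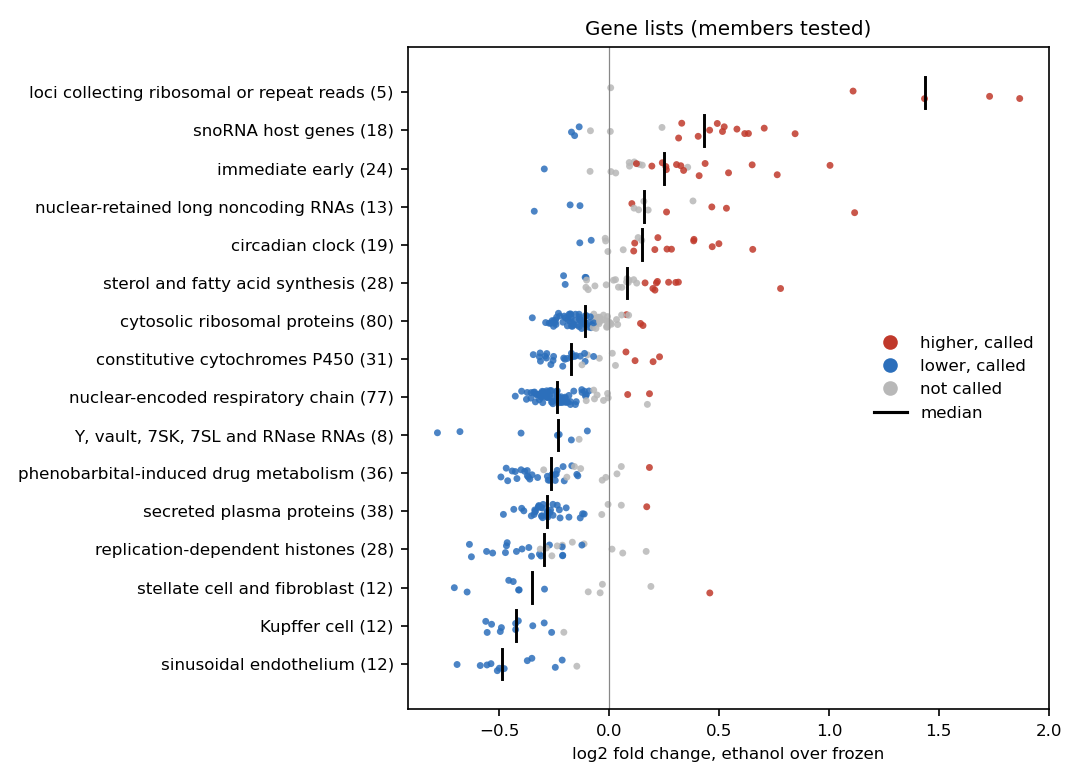
Log2 fold change of ethanol-fixed over frozen liver (horizontal axis) for each tested member of 16 gene lists (rows, with the number tested), with the list median as a black bar. Endothelial and Kupffer cell markers lie to the left of 0 and 12 of 18 snoRNA host genes were called to its right.

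Genes rich in GC were more often higher and genes poor in GC more often lower. Across 10 equal bins of the genes by GC content of the longest transcript, the median log2 fold change went up at every step, with -0.12 in the lowest bin (27.5 to 40.6% GC) and 0.26 in the highest (57.3 to 75.5% GC). In the lowest bin 4.98% of genes were called higher and 42.6% lower, and in the highest bin 60.8% and 9.23%. The slope had the same sign in each animal, between 0.10 and 0.20 on the log2 ratio scale per 10 points of GC. The 88 genes higher past 1.5-fold had a median GC content of 58.9%, against 48.9% over the genes tested, and the 9 messenger RNAs among the 12 largest falls had a median of 42.2%. By exonic length the medians had no single direction, with medians between -0.051 and 0.035 over 10 bins. By level, 59.2% of the most abundant bin of genes were called lower and 19.1% higher.

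Removing a trend on GC content from each library, with the animal still as a block, left 6488 genes called, of which 5323 were among those called before with the same sign. Endothelial markers then had a median of -0.46, Kupffer cell markers -0.45, plasma proteins -0.27 and snoRNA hosts 0.46, while that of immediate early genes became 0.096, with 9 higher and 3 lower, and that of Y, vault, 7SK, 7SL and RNase RNAs became -0.60. Zinc finger proteins then had 115 higher and 12 lower (median 0.083), sterol and fatty acid synthesis genes 6 and 2, nuclear-retained RNAs 6 and 1, and mitochondrially encoded proteins 4 and 0 (median 0.13). Other named genes that still passed moved by more than 1.5 times. The rises became 0.84 for Gm24187, 0.63 for Gm26917, 0.35 for Dbp, 0.22 for Nr1d1, 0.14 for Cry2, 0.25 for Zfp598, 0.20 for Psmd3, 0.12 for Srebf2 and 0.19 for Malat1 on the log2 scale. The falls became -0.59 for Rmrp, -0.32 for Snora73b, -0.13 for Ptprc and -0.078 for Kcnq1ot1. With a length trend removed instead, Rmrp was at -0.14 and Snora73b at -0.10.

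**Figure D5:**
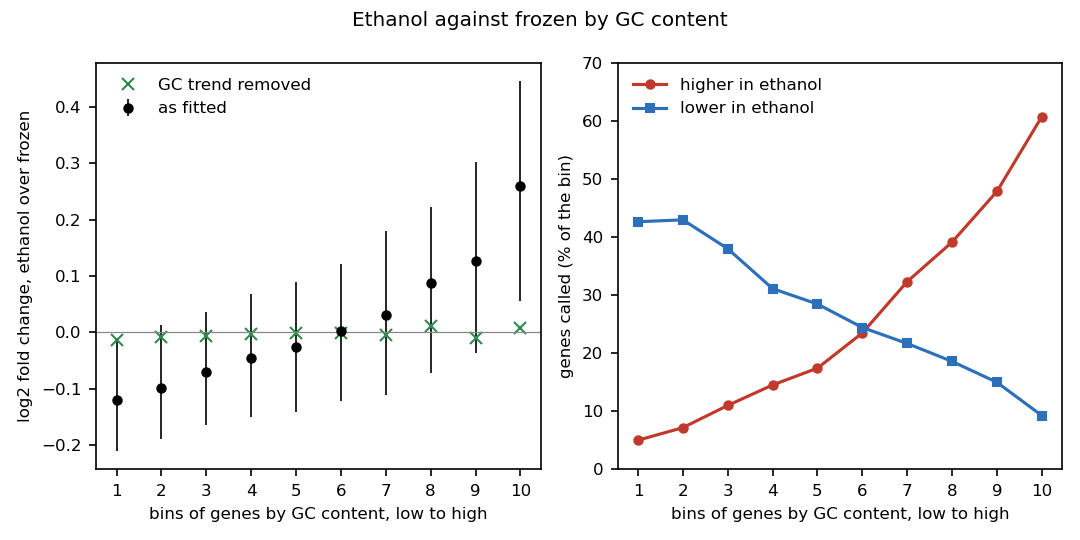
Left, median log2 fold change of ethanol-fixed over frozen liver in 10 bins of the genes by GC content (bars from the lower to the upper quartile) and the median after a GC trend was removed (crosses); right, percent of each bin called higher or lower. The median goes from -0.12 in the lowest to 0.26 in the highest bin.

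The ethanol difference was next compared between phenobarbital and control animals. The interaction passed at an adjusted p of 0.05 for 0 of 14583 genes (0%) with edgeR's quasi-likelihood test, the lowest adjusted p being 0.106, and 808 genes had an unadjusted p under 0.05. DESeq2 called 1 gene and limma voom 0. Of phenobarbital-induced drug metabolism genes 1 rose and 27 fell of 36 tested (median -0.27), against 25.8% and 27.1% over all genes. Cyp3a11, the main inducible P450 of the 3A family, averaged 6114 ± 2162 CPM in ethanol-fixed and 7984 ± 2586 CPM in frozen liver of phenobarbital mice, and 90.8 ± 50.1 CPM in ethanol-fixed and 134 ± 78.7 CPM in frozen liver of control mice (SD, n = 6 each). Its log2 fold change was -0.40 in phenobarbital and -0.56 in control animals (interaction adjusted p = 0.853, edgeR).

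Cyp2b10, the classic target of CAR, averaged 1787 ± 363 CPM in ethanol-fixed and 2086 ± 389 CPM in frozen liver of phenobarbital mice, against 0.442 ± 0.292 and 0.182 ± 0.128 CPM in control mice. Over all animals Cyp2b10 changed by -0.21 ± 0.051 (adjusted p = 9.95e-04), lower in 7 of 12. The direction over all animals is not settled: with DESeq2 the value was 0.16 and with limma on the deposited log2 values 0.58. Each phenobarbital animal was lower in ethanol, with within-animal log2 ratios of -0.31 to -0.082. Control animals, with levels near 0 CPM, had ratios of -0.15 to 1.43. Aldh1a1, a retinal dehydrogenase, changed by -0.42 ± 0.031, Cyp2c29 by -0.46 ± 0.036 and Gstm1, a glutathione transferase, by -0.37 ± 0.027, each lower in 12 of 12 animals. Abcc2, a bile canalicular exporter (0.036 ± 0.025, adjusted p = 0.234), and Cyp3a25 (0.056 ± 0.030, adjusted p = 0.118) did not pass the test. Of the 11 library measures 0 passed a test of whether the ethanol difference itself differed between phenobarbital and control animals (exact permutation tests, adjusted p at least 0.548). Within 1 treatment alone, some genes named above still passed but moved by more than 1.5 times: Egr1 was at 0.41 and Sgk1 at -0.19 in phenobarbital animals, and Neat1 at 0.17 and Kcnq1ot1 at -0.11 in control animals.

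The portions given 18 hours in formalin before ethanol shared the embedding and the months in ethanol, and the comparison with them uses the same ethanol-fixed libraries. With edgeR and the animal as a block, 8053 of 13736 genes were called (58.6%), 4019 higher in ethanol-fixed liver (29.3%) and 4034 lower (29.4%). With library totals alone the split was 2771 higher and 5423 lower. Levels in CPM of 18-hour formalin liver come from a TMM scaling with the ethanol-fixed libraries. Those of ethanol-fixed and frozen liver come from the scaling used above, so formalin levels are not on quite the same scale. Fold changes come from the fit of ethanol-fixed and formalin libraries, and formalin was not tested against frozen liver. Of 61 snoRNAs and scaRNAs 1 was higher and 53 lower in ethanol-fixed liver, with a median log2 fold change of -1.19. Of 16 snRNAs 0 were higher and 12 lower (median -1.34), and of 8 Y, vault, 7SK, 7SL and RNase RNAs 0 were higher and 8 lower (median -1.23). The share of counts in snoRNAs and scaRNAs was 0.0984 ± 0.0136% in ethanol-fixed and 0.216 ± 0.0590% in 18-hour formalin liver (exact permutation test, adjusted p = 7.67e-04). That of other small structured RNAs was 0.922 ± 0.101% and 1.95 ± 0.431% without overlap, whereas between ethanol-fixed and frozen liver it was 0.922 ± 0.101% and 0.943 ± 0.0697% (exact permutation test, adjusted p = 0.419). Snora23 averaged 38.4 ± 7.30 CPM in ethanol-fixed and 84.5 ± 23.6 CPM in 18-hour formalin liver, beside 83.5 ± 18.0 CPM in frozen liver. Rny3, whose sequence is printed above, averaged 9.97 ± 4.24 CPM in ethanol-fixed, 38.7 ± 21.1 CPM in 18-hour formalin and 16.9 ± 5.72 CPM in frozen liver.

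Nuclear and messenger RNAs also differed between ethanol and 18-hour formalin. Of 12 nuclear-retained long noncoding RNAs 11 were higher and 0 lower in ethanol-fixed liver (median 0.65). Malat1 averaged 9960.1 ± 1176 CPM in ethanol-fixed and 5944 ± 805 CPM in 18-hour formalin liver (log2 fold change 0.83 ± 0.048, adjusted p = 7.90e-13), beside 9253 ± 863 CPM in frozen liver. Of 38 plasma protein genes 25 were higher and 6 lower (median 0.34), and Alb was at 0.27 ± 0.048. Of 80 cytosolic ribosomal protein genes 0 were higher and 76 lower (median -0.41). Of 12 sinusoidal endothelial markers 0 were higher and 10 lower (median -0.56), and of 12 Kupffer cell markers 0 were higher and 9 lower (median -0.25).

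Of the genes with the largest rises over frozen liver, Josd2 averaged 39.0 ± 8.22 CPM in ethanol-fixed, 16.1 ± 2.24 CPM in 18-hour formalin and 17.3 ± 3.58 CPM in frozen liver. Gm26917 was also highest in ethanol-fixed liver, with 15780.1 ± 4296, 5678 ± 1375 and 7207 ± 1423 CPM in the same sequence of states. Gm42418 did not pass the test against 18-hour formalin (log2 fold change 0.37 ± 0.17, adjusted p = 0.0653). It averaged 1436 ± 528 CPM in ethanol-fixed and 1159 ± 391 CPM in 18-hour formalin liver, beside 381 ± 96.3 CPM in frozen liver. Lars2 likewise did not pass the test against 18-hour formalin (-0.019 ± 0.096, adjusted p = 0.878).

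Across the 13908 genes, log2 CPM of the ethanol-fixed and frozen portion of 1 animal correlated with r between 0.986 and 0.993, against 0.967 to 0.989 for ethanol-fixed and frozen portions of different animals on the same treatment; genes are not independent replicates. The SD over genes of the within-animal log2 ratio was between 0.27 in animal 8C and 0.38 in animal 21C. Of the genes called, 1558 were higher and 1563 lower in 12 of 12 animals, and 186 higher and 53 lower genes had ranges that did not overlap between states.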

How the data were processed

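RNA was measured by sequencing of stranded total RNA libraries depleted of ribosomal RNA on an Illumina HiSeq, per the series' description. The authors deposited raw read counts per gene. The submitters' processing notes name CASAVA, STAR 2.5, edgeR, GRCm38 and mm10 with no role or order; how reads were counted, on which annotation and strand, is not given in the sources used here. The authors also deposited log2 expression values, which served in an alternative. The 47465 deposited lines included 92 for spike-ins with 0 counts over the 24 libraries, and 46954 of 47373 genes were matched to GENCODE M21. Counts were tested with edgeR 4.0.16 in R 4.3.3 (filterByExpr with a minimum count of 10, TMM scaling, quasi-likelihood test, animal as a block) and Benjamini-Hochberg adjustment over all genes tested. Each SE was taken from the fold change and its F statistic. DESeq2 1.42.0 and limma 3.58.1 gave alternatives. Tables and figures were made with Python 3.11.15, and the fits were tested on simulated data. Library measures were tested by two-sided exact permutation over 4096 sign changes, whose smallest p is 0.000488, adjusted over 11 measures; the same family against 18-hour formalin was added after seeing the data. Groups, animals and states came from the sample titles, and the block from the animal codes. Deviations from group means correlated between both portions of 1 animal with r between 0.53 and 0.77, over 0.1 in 12 of 12. Between different animals on 1 treatment the median was -0.11, with values from -0.53 to 0.50. Portions of 1 liver are separate samples, and animals are the replicates. Library totals are 12083342 counts or more, and no interval for counting error is given where animals give the spread.

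The genes named are 10 fixed ones; the 12 largest rises and 12 largest falls among genes called, at 5 CPM or more on average and with the same sign in 12 of 12 animals, passing over predicted genes; up to 4 called members of each list with the smallest p and up to 2 uncalled members with the highest level; and the 3 most abundant genes of RNA classes. The genes at the edge of the 1.5-fold rule, predicted loci among the largest changes and Col1a1 fall outside this rule and were chosen after their values were seen. Some genes that the rule picks are not reported here. The comparison, the members and the 54 lists were chosen with earlier results of these data known. Of 725 entries in the symbol lists 715 were found. Alternatives were other tools and scalings, no filter, thinning to the lowest total, removal of GC or length trends, leaving out each animal, each treatment alone, a fold of 2 and the fit without the block.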

Additional observations from a re-analysis of the deposited data

Results flagged for a closer look

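In groups of 6 libraries or animals, a value was picked out when its gap to the nearest other value was large for the range of its group (Dixon's test at 95%). Of 112 groups 7 were picked out, and chance picks out about 1 in 20.

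The ethanol-fixed portion of control animal 21C was picked out in 4 class shares. Ribosomal or repeat loci held 3.02% of its counts, against 1.29 to 1.91% in the other 5 ethanol-fixed control libraries. SnoRNAs and scaRNAs held 0.127%, against 0.0937 to 0.105%, and mitochondrially encoded RNA 3.49%, against 2.11 to 2.57%. Nuclear protein-coding genes held 89.5%, against 92.1 to 93.3%. The within-animal log2 ratio of Alb, the albumin gene, was -0.58 in animal 21C, against -0.239 to -0.0447 in the other 5 control animals.

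The within-animal log2 ratio of Chrna4, the nicotinic receptor subunit, was 2.12 in control animal 8D, against 0.83 to 1.31 in the other 5. The frozen portion of control animal 8C had a total of 16456535 counts, against 14527636 to 15214338 in the other 5 frozen control libraries.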

How the results depend on the processing

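The count of genes called between ethanol-fixed and frozen liver was 4561 with no replicate block, and the count past 1.5-fold was 45 without the block and 3 at a fold of 2. The interaction with phenobarbital gave 1 gene with DESeq2 and 58 with no filter on low counts. With each animal left out in turn, the counts were 7052 to 7346 for ethanol against frozen, 85 to 107 past 1.5-fold, 0 in each case for the interaction and 7721 to 8069 for ethanol against 18-hour formalin. Cyp2b10 was at 0.1571 with DESeq2 and 0.5839 with limma on the deposited log2 values, and at -0.21 in the fit reported; Pck1, not called, was at 0.07061 with library totals alone and 0.008606 in phenobarbital animals only. The median of the glucose metabolism list was 0.02651 with library totals alone, against -0.062. The cause of these differences was not tested. Without the replicate block 23 of the genes named no longer passed the test, among them Alb, Cyp3a11, Malat1 and Neat1, with log2 fold changes of -0.27, -0.47, 0.11 and 0.25. Over the named genes and alternatives, 2754 values had the direction and side of the threshold reported, 34 lost the call, 19 gained one and 4 changed sign. Library totals of 12083342 or more limit what can be said of low genes, such as most markers of rare cells.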

Other observations

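Further gene groups were counted in the same way. Beside them, 25.8% of all genes tested rose and 27.1% fell, and in the most abundant bin of genes by level 59.2% fell. Of acute phase genes 3 rose and 20 fell of 26 tested (median -0.21), of endoplasmic reticulum stress genes 6 rose and 15 fell of 25 tested (median -0.12) and of fatty acid oxidation genes 1 rose and 12 fell of 23 tested (median -0.11). Of bile acid synthesis and transport genes 4 rose and 12 fell of 20 tested (median -0.092), and of glucose metabolism genes 5 rose and 11 fell of 24 tested (median -0.062). Of interferon-responsive genes 4 rose and 10 fell of 24 tested (median -0.13). Of hypoxia genes 5 rose and 6 fell of 17 tested (median -0.037), not far from the shares over all genes. With library totals alone the medians of the glucose metabolism (0.027) and hypoxia lists (0.052) were above 0. Of mitotic genes 0 rose and 8 fell of 20 tested (median -0.25), and of mitochondrial ribosomal protein genes 5 rose and 43 fell of 77 tested (median -0.12).

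Among gene classes with near-identical copies, of major urinary proteins 1 rose and 14 fell of 20 tested (median -0.25) and of processed pseudogenes 23 rose and 38 fell of 212 tested (median -0.0093), and reads of these can be shared between copies. The median of processed pseudogenes was 0.076 with library totals alone. Of microRNA precursors 6 rose and 1 fell of 18 tested (median 0.25). The 3 of them higher past 1.5-fold were Gm23935, Gm24187 and Mir6236, counted above among the ribosomal or repeat loci. Of transcripts of unconfirmed status 44 rose and 56 fell of 561 tested (median -0.030, and 0.056 with library totals alone). Over all genes tested 25.8% rose and 27.1% fell.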
